A study of Homo sapiens with 9 samples.

Results

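The genes described are 10 that encode the major carrier and binding proteins of plasma made by hepatocytes: ALB, TF, TTR, SERPINA1, AHSG, RBP4, A2M, GC, AMBP and SHBG. They were chosen by name and looked up by Ensembl identifier, and all 10 stood among the 19317 genes of the deposited count table. Expression was measured by RNA sequencing in HepG2, an established cell line from a human hepatocellular carcinoma, labelled as wild type in every group. The DNL group (3 samples), a model of de novo lipogenesis, spent 1 week in DMEM that contained insulin (10 µg/ml) and the compound T0901317 (10 µM), which activates liver X receptors. The OA group (3 samples) spent 6 hours in DMEM to which oleic acid (25 µM) had been added from a stock in 11% bovine serum albumin (BSA). The WT group (3 samples) was kept in RPMI with no added compound. All groups had 10% serum and 1% antibiotics in the medium. No sample had DMEM alone or the albumin carrier without oleic acid, so medium, compound and duration cannot be told apart in any comparison with WT. DNL and OA differ in compounds, albumin carrier and duration together, so these cannot be told apart between the models either. Whether replicates came from separate cultures is not stated in the labels, so p-values here reflect sample-to-sample spread that could be purely technical.

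Hepatocytes secrete most of the proteins that carry hydrophobic or reactive molecules through the blood. Albumin binds fatty acids and bilirubin, transferrin (TF) binds iron, transthyretin (TTR) binds thyroxine and holds the retinol carrier RBP4 in the circulation, and GC binds vitamin D. SERPINA1, A2M and AMBP encode protease inhibitors that travel in plasma, AHSG encodes fetuin-A, which keeps calcium phosphate in solution, and SHBG binds sex steroids. These genes are classic markers of the differentiated hepatocyte, and HepG2 cells are known for retaining many of them.

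Library totals spanned 16447398 to 36147431 estimated counts for DNL, 7836520 to 28636903 for OA, and 26425694 to 43043347 for WT. Within a group the correlation of log2 levels was at least 0.965, and between groups at most 0.954. Markers of hepatocytes outside the list (12 genes, APOB and the fibrinogen genes among them) summed to between 56500 and 58100 CPM in DNL, between 10400 and 11800 CPM in OA and between 33600 and 35100 CPM in WT, where CPM is the count scaled to a common library total after TMM normalization. APOB made up most of that sum, with means of 49000 CPM in DNL, 8768 CPM in OA and 30210 CPM in WT. DNL was above WT for 9 of the 12 and below it for 2 by the edgeR test, where 27.1% of all genes were called higher and 26.8% lower. OA was above WT for 1 and below it for 10, against 30.4% and 29.7% of all genes. The 1 was CYP2E1 (adjusted p = 0.0499), which was at 0 in OA replicates 1 and 3 and at 0.132 CPM in OA replicate 2. CYP2E1 and CYP3A4, both below 1 CPM in every library, were also among the 9 called higher in DNL. TAT, a liver aminotransferase, fell in both models (log2 fold change -2.12 in DNL and -1.47 in OA). CYP3A4, a marker of mature hepatocytes, stayed at or under 0.532 CPM in every library, and CYP2E1 was at 0 in WT. Markers of cholangiocytes (6 genes) summed to between 988 and 1090 CPM in DNL, between 900 and 1060 in OA and between 525 and 544 in WT, with CFTR at 0 in all groups. They did not move as one: KRT19 averaged 150.5 CPM in DNL, 551 CPM in OA and 92.2 CPM in WT, and SOX9 averaged 661.5 CPM in DNL, 254 CPM in OA and 320 CPM in WT. KRT7 was at 0 in DNL and WT and measured 0.474, 1.48 and 8.19 CPM in OA replicates 1, 2 and 3. Markers of macrophages and leukocytes (7 genes) summed to between 1810 and 1890 CPM in DNL, between 1130 and 1180 in OA and between 1010 and 1020 in WT, with MARCO at 0 in all groups and CSF1R at 0 in DNL and WT. LYZ made up most of that sum, with means of 1637 CPM in DNL, 1028 CPM in OA and 940.5 CPM in WT. CD74 averaged 186.7 CPM in DNL, 80.9 CPM in OA and 29.2 CPM in WT. CD14 averaged 6.25, 0.286 and 2.77 CPM and CD68 32.1, 46.1 and 40.6 CPM in the same groups. Of the 5 tested markers, 3 were called higher and 1 lower in DNL against WT, and 2 higher and 1 lower in OA against WT. PTPRC stayed at or under 0.951 CPM in every library. Endothelial markers (6 genes) summed to at most 8.32 CPM in any library, with STAB2 at 0 in all groups. Markers of fibroblasts and stellate cells (8 genes) summed to between 91.6 and 92.9 CPM in DNL, between 95.9 and 1060 CPM in OA and between 71.9 and 78.0 CPM in WT. COL1A2 and LUM were at 0 in DNL and WT, and no marker of the 8 was at 0 over the OA group. COL1A1, a collagen gene, measured 19.4, 85.0 and 537 CPM in OA replicates 1, 2 and 3, and was below 1 CPM in every DNL and WT library. In OA against WT, 2 of the 7 fibroblast markers tested were called higher and 1 lower, against 30.4% and 29.7% of all genes. The median log2 fold change of the 7 was 2.98, with -0.03 over all genes. COL1A2 measured 10.19, 41.05 and 259.6 CPM in OA replicates 1, 2 and 3, and was not called by the edgeR test (adjusted p = 0.118). The part of these markers in the carrier results was not tested, and COL1A1 was above its WT level in each OA library. With OA replicate 3 left out, 8 carrier genes were called lower in OA than in WT, where 7923 of all genes were called in either direction. The log2 fold change of ALB was then -1.85 (-1.89 with all libraries).

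Relative to WT, most of the carrier genes rose in DNL and fell in OA. Of the 9 members that could be tested, 7 rose and 2 fell in DNL against WT, where 27.1% of all 13636 genes tested were called higher and 26.8% lower. In OA against WT, 0 rose and 8 fell, against 30.4% and 29.7% of all genes. Between the models, all 9 tested members were higher in DNL than in OA, where 31.9% of all genes were called higher and 30.9% lower. The median log2 fold change of the 9 was 1.19 in DNL against WT, with -0.02 over all genes, and -0.96 in OA against WT, with -0.03 over all genes. DNL against WT and OA against WT share the WT samples. A call means an adjusted p under 0.05 in the quasi-likelihood test of edgeR over all 13636 genes. In these bulk samples, fewer cells with a transcript and less of it per cell cannot be told apart. The tenth member, GC, was listed at 0 in all 9 libraries.

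**Figure D1:**
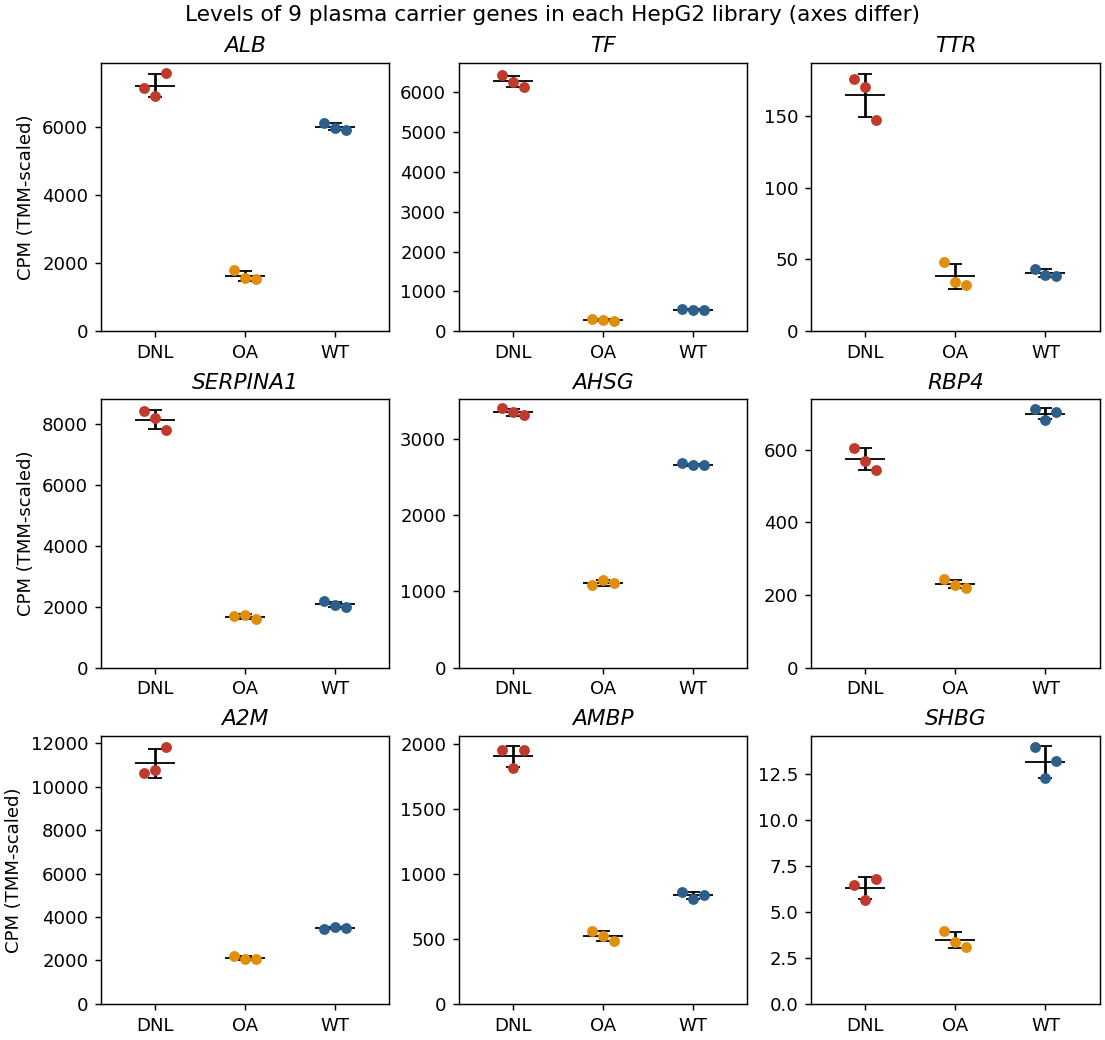
TMM-scaled CPM (y axes from 0, each its own scale) of the 9 detected carrier genes in DNL, OA and WT libraries. Points are libraries, long dashes the mean and bars the SD of 3. DNL points lie above WT points for 7 genes, and below them for RBP4 and SHBG. The share of all genes whose points separate in this way was not computed.

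The bases before the transcript start are shown for 4 members, because they fall into pairs with different responses in DNL: TF and SERPINA1 differed several-fold from WT, ALB and AHSG by less than 2-fold. RefSeq windows on GRCh38.p14 were matched by symbol for 7 members (TTR, A2M and GC had no match), and the 250 bases before each start are printed 5′ to 3′ on the gene's own strand. They lie at chr4:73404037-73404286 (plus strand, ALB), chr3:186612810-186613059 (plus strand, AHSG), chr3:133746143-133746392 (plus strand, TF) and chr14:94388603-94388852 (minus strand, SERPINA1). For TF and SERPINA1, which have 2 listed starts each, the window shown is that of the start inside the GENCODE gene for TF, and of the downstream start for SERPINA1, the one hepatocytes are known to use. Capitals mark the motifs found.
ALB: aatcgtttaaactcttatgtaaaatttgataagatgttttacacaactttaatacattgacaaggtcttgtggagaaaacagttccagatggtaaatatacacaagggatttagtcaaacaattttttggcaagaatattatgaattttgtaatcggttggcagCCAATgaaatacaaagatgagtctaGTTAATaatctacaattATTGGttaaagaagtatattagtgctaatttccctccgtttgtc
AHSG: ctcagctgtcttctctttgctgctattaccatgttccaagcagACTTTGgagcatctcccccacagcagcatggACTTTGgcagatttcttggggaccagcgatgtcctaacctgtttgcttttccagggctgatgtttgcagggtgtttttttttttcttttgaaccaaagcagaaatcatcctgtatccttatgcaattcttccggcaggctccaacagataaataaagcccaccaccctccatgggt
TF: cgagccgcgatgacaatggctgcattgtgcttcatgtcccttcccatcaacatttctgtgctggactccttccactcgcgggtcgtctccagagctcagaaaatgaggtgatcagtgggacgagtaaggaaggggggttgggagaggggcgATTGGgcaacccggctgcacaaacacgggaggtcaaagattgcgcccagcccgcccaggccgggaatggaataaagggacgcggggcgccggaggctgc
SERPINA1: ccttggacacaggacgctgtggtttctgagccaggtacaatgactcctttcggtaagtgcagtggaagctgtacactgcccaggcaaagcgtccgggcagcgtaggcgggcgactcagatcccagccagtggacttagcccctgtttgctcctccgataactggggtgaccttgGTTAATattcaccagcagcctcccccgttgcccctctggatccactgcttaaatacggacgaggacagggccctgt
Matches were sought on both strands in the windows of all 13 starts listed for the 7 members, and in all 35116 RefSeq windows of the same length. The motif GTTAAT stood 61 to 56 bases before the ALB start and 76 to 71 bases before the SERPINA1 start, and is held by 6.23% of all windows. CAAAGT, a core of sites for HNF4, stood on the other strand in AHSG, at 207 to 202 and at 176 to 171 bases before the start, and in a window of RBP4 at 195 to 190 bases, and is held by 10.3% of all windows. CCAAT, the CCAAT box, was matched once on each strand in ALB and, in TF, once on the other strand, 99 to 95 bases before the start. It was also matched in a window of RBP4 and 4 times in a window of AMBP, and 32% of all windows hold it. The C/EBP type motif TTGCAA had no match in the 13 windows and occurs in 4.73% of all. The core of hypoxia elements, ACGTG, had no match in them either and occurs in 18.5% of all. The TATA box, searched as TATAAA, was matched in windows of RBP4, and 10.7% of all windows hold it. No match overlapped another in the 4 windows shown. A match is a description of letters and not a bound site.

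ALB and GC lie near each other on chromosome 4 and belong to the albumin family. ALB was among the most abundant transcripts, and no count was listed for GC. ALB (chromosome 4, 73397114 to 73421412, GRCh38) measured 7150, 6930 and 7587 CPM in DNL, 1787, 1560 and 1536 CPM in OA, and 6128, 5982 and 5935 CPM in WT. The 3 groups did not overlap, and OA stood far below the others. ALB was 1.20-fold higher in DNL than in WT (log2 fold change 0.26, SE 0.055, adjusted p = 0.00129), a call that did not hold under scaling by library totals alone (log2 fold change 0.10, adjusted p = 0.171). In OA it fell by 1.89 on the log2 scale against WT (SE 0.0569, adjusted p = 4.21e-11), and DNL exceeded OA 4.44-fold. GC (chromosome 4, 71741693 to 71804041) had 0 counts in every library, which allows a level of up to 0.0691 to 0.356 CPM, depending on the depth of the library. That limit covers counting error only, and a listed 0 may also come from the estimator that assigned the reads. HepG2 is known to make the GC protein, and the annotation used for counting is not given in the sources used here, so the 0 is not read as absence of the transcript. AFP, alpha-fetoprotein of the same family, chosen after its values were seen, measured 2069, 1993 and 2072 CPM in DNL, 1038, 951 and 917 CPM in OA, and 2094, 1980 and 1987 CPM in WT. Its DNL and WT values overlapped (log2 fold change 0.02, adjusted p = 0.773), and in OA it fell by 1.06 on the log2 scale against WT (adjusted p = 1.04e-09).

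TF, the iron carrier (chromosome 3, 133745956 to 133796640), showed the widest range of the list. Its levels were 6428, 6272 and 6136 CPM in DNL, 315, 272 and 250 CPM in OA, and 562, 532 and 540 CPM in WT. Every DNL library was above every WT library and every OA library below. The rise in DNL against WT was 11.5-fold (log2 fold change 3.53, SE 0.0716, adjusted p = 6.45e-12) and ranked 84 from the top of the 13636 genes tested. In OA, TF fell by 0.96 against WT on the log2 scale (SE 0.067, adjusted p = 1.69e-07), and DNL exceeded OA 22.5-fold. The annotated 3′ end of TF runs 12608 bases into SRPRB on the same strand, so their reads may be exchanged by the estimator. SRPRB, which encodes a subunit of the signal recognition particle receptor and was chosen for this overlap, measured 54.8 ± 2.44 CPM in DNL, 96.8 ± 4.78 CPM in OA and 84.1 ± 6.22 CPM in WT (SD over 3 libraries), and fell in DNL against WT by 0.62 on the log2 scale (adjusted p = 4.23e-06).

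Partners of transferrin in iron handling did not all move with it. TFRC, the transferrin receptor that takes iron into most cells, rose in DNL (791 ± 17.3 CPM, against 269 ± 9.18 CPM in WT) and in OA (400 ± 22.8 CPM), with adjusted p = 2.73e-11 and 2.34e-07. TFR2, the receptor by which hepatocytes sense loaded transferrin, fell in DNL (51.3 ± 5.29 CPM, against 78.7 ± 2.16 CPM in WT, adjusted p = 2.76e-05) and measured 20.9 ± 1.99 CPM in OA. CP, the plasma ferroxidase ceruloplasmin, measured 891 ± 16.7 CPM in DNL, 19.7 ± 1.09 CPM in OA and 135 ± 7.11 CPM in WT. It rose 6.60-fold in DNL (adjusted p = 3.61e-13) and fell by 2.77 on the log2 scale in OA against WT (adjusted p = 1.6e-12).

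AHSG (chromosome 3, 186612923 to 186621318) resembled ALB in direction. It measured 3396, 3342 and 3305 CPM in DNL, 1079, 1153 and 1104 CPM in OA, and 2675, 2653 and 2648 CPM in WT. No group overlapped another, and the replicates of this gene lay close together, with a coefficient of variation of 1.36% in DNL, 3.38% in OA and 0.531% in WT. AHSG rose 1.26-fold in DNL against WT (log2 fold change 0.33, SE 0.0348, adjusted p = 3.86e-06), and fell by 1.26 on the log2 scale in OA against WT (adjusted p = 2.01e-11). An antisense gene annotated across AHSG was not analysed here, and the strand setting of the counting is not given in the sources used here.

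TTR and RBP4, whose proteins circulate as a complex, went apart in DNL. TTR (chromosome 18, 31557010 to 31599021) measured 176, 170 and 147 CPM in DNL, 48.4, 34.6 and 31.9 CPM in OA, and 43.4, 39.1 and 38.5 CPM in WT. DNL libraries were all above WT libraries, while those of OA lay on both sides of them. TTR rose 4.07-fold in DNL against WT (log2 fold change 2.02, SE 0.133, adjusted p = 8.65e-07). OA against WT did not pass the test (log2 fold change -0.08, SE 0.139, adjusted p = 0.66), and the 95% interval of the fold was 0.785 to 1.15 by a normal approximation. Without OA replicate 1, its highest OA library, TTR was called lower in OA (log2 fold change -0.27, adjusted p = 0.0212), and without OA replicate 2 or OA replicate 3 the estimate was 0.01.

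RBP4 (chromosome 10, 93591687 to 93601744) measured 606, 569 and 545 CPM in DNL, 243, 227 and 220 CPM in OA, and 711, 683 and 703 CPM in WT. Both models were below WT without overlap, OA by more. RBP4 fell by 0.29 on the log2 scale in DNL (SE 0.0469, adjusted p = 0.000203) and by 1.60 in OA (SE 0.0489, adjusted p = 4.02e-11) against WT. Within each library, the count of TTR divided by that of RBP4, a ratio that no scaling of libraries can move, was 0.290, 0.299 and 0.270 in DNL, 0.199, 0.153 and 0.145 in OA, and 0.0611, 0.0573 and 0.0548 in WT. TTR made up more of the pair's counts in every DNL and OA library than in any WT library. FFAR4, a fatty acid receptor gene on the opposite strand of RBP4 that was chosen for this overlap, stayed at or under 1.40 CPM in every library.

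SHBG (chromosome 17, 7613946 to 7633383) had the lowest level of the detected members. It measured 6.50, 5.66 and 6.82 CPM in DNL, 3.95, 3.39 and 3.09 CPM in OA, and 14.0, 12.3 and 13.2 CPM in WT. The groups did not overlap, and WT was the highest. The values rest on between 85 and 211 counts per library in DNL, between 26 and 103 in OA and between 362 and 609 in WT. SHBG fell by 1.05 on the log2 scale in DNL (SE 0.138, adjusted p = 2.9e-05) and by 1.92 in OA (SE 0.151, adjusted p = 2.06e-07) against WT. DNL was 1.82-fold above OA (adjusted p = 0.000284). SAT2 and FXR2 overlap SHBG on the opposite strand, so reads of these genes may be mixed where counting ignores strand. Both were chosen for that overlap. SAT2 measured 12.7 ± 1.54 CPM in DNL, 9.94 ± 0.528 in OA and 14.9 ± 2.0 in WT, and FXR2 measured 31.4 ± 2.04 CPM in DNL, 57.2 ± 3.19 in OA and 47.9 ± 1.45 in WT.

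The protease inhibitors SERPINA1, A2M and AMBP shared a pattern of large rises in DNL and smaller falls in OA. It was not particular to inhibitors, as TF had it too (log2 fold changes 3.53 and -0.96). The 15 other inhibitors tested had medians of 0.68 in DNL and -1.38 in OA. SERPINA1, which encodes alpha-1-antitrypsin, an inhibitor of neutrophil elastase (chromosome 14, 94376747 to 94390693), measured 8418, 8201 and 7798 CPM in DNL, 1683, 1738 and 1598 CPM in OA, and 2171, 2045 and 1999 CPM in WT. DNL libraries stood far above the rest, and OA libraries just below WT. It rose 3.93-fold in DNL (log2 fold change 1.97, SE 0.047, adjusted p = 4.48e-12) and fell by 0.31 on the log2 scale in OA (SE 0.0456, adjusted p = 6.8e-05) against WT.

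A2M, alpha-2-macroglobulin, which traps proteases and binds cytokines (chromosome 12, 9067664 to 9116229), measured 10640, 10740 and 11840 CPM in DNL, 2213, 2051 and 2067 CPM in OA, and 3444, 3533 and 3481 CPM in WT. The groups were again apart. It rose 3.18-fold in DNL (log2 fold change 1.67, SE 0.0477, adjusted p = 2.08e-11) and fell by 0.72 on the log2 scale in OA (SE 0.0468, adjusted p = 3.41e-08) against WT. PZP, a close relative of A2M in the human genome and named for that reason, was at most 0.0732 CPM in any library. AMBP, which encodes both alpha-1-microglobulin, a haem scavenger, and bikunin, a protease inhibitor (chromosome 9, 114060127 to 114078472), measured 1950, 1812 and 1954 CPM in DNL, 557, 525 and 481 CPM in OA, and 860, 809 and 836 CPM in WT. DNL was above and OA below WT in every library. AMBP rose 2.28-fold in DNL (log2 fold change 1.19, SE 0.0526, adjusted p = 1.17e-09) and fell by 0.68 on the log2 scale in OA (SE 0.0527, adjusted p = 1.8e-07) against WT.

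**Figure D2:**
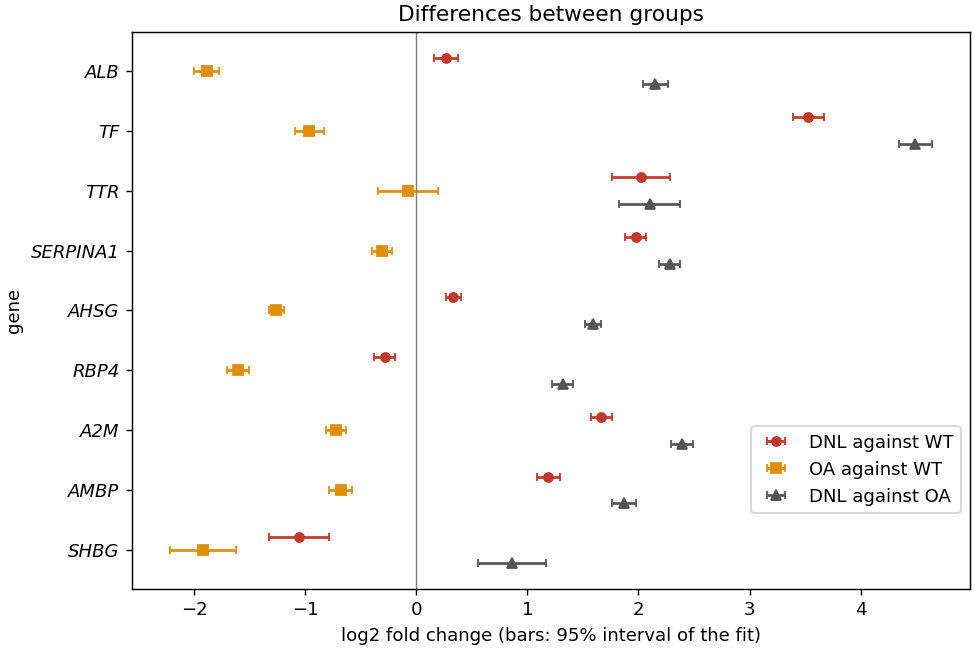
Log2 fold change (x axis) of each tested carrier gene (y axis) in DNL against WT, OA against WT and DNL against OA. Bars are the 95% interval of the fit by a normal approximation. DNL against OA lies above 0 for all 9 genes, and OA against WT lies below 0 for 8, with the TTR bar crossing 0.

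The direct comparison of the models put DNL above OA for every tested member. From the top, DNL exceeded OA 22.5-fold for TF, 5.25-fold for A2M, 4.86-fold for SERPINA1, 4.44-fold for ALB, 4.29-fold for TTR, 3.66-fold for AMBP, 3.01-fold for AHSG, 2.49-fold for RBP4 and 1.82-fold for SHBG. The adjusted p-values ran from 7.11e-13 for A2M to 0.000284 for SHBG. Of all genes tested, 10.1% were called higher in DNL than in OA by at least 2-fold, as were 8 of the 9 members.

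The list as a whole took a different share of the transcriptome in each group. The 10 genes held 3.48%, 3.48% and 3.63% of all counts in DNL replicates 1, 2 and 3, 0.857%, 0.802% and 0.783% in OA, and 1.68%, 1.67% and 1.68% in WT. The make-up of that share also differed, and it does not depend on how libraries are scaled against each other. ALB held between 18.2% and 19.3% of the list's counts in DNL, between 20.6% and 22.5% in OA and between 36.7% and 36.9% in WT. TF held between 15.6% and 16.6% in DNL, between 3.43% and 3.98% in OA and between 3.27% and 3.38% in WT. SERPINA1 held between 19.8% and 21.7% in DNL, between 21.2% and 23.0% in OA and between 12.3% and 13.1% in WT. Per count of ALB, A2M was higher in both models than in WT, although its level was above WT in DNL and below it in OA. That ratio was 1.49, 1.55 and 1.56 in DNL, 1.24, 1.31 and 1.35 in OA, and 0.562, 0.591 and 0.587 in WT.

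**Figure D3:**
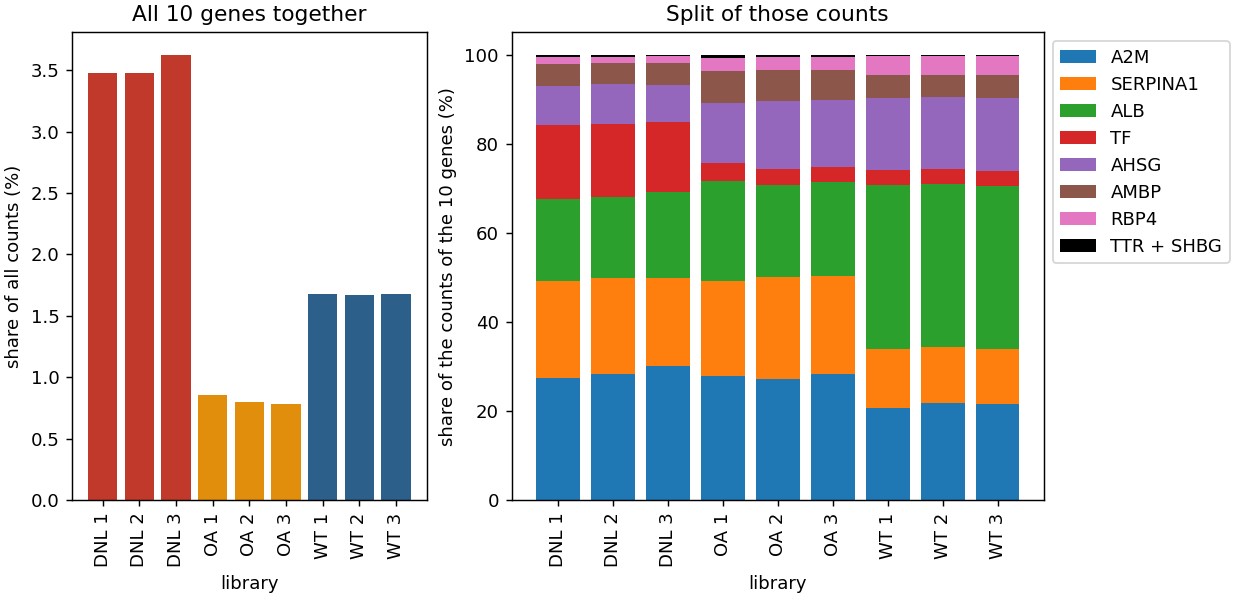
Left, percent of all counts held by the 10 genes in each library. Right, percent of those counts held by each gene. The list holds at least 3.48% of counts in DNL libraries, at most 0.857% in OA and at most 1.68% in WT, and the ALB band is widest in WT.

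Levels of different genes were compared per kilobase of coding sequence (counts per coding kilobase, scaled to a common total over all genes). On that scale the order in DNL was SERPINA1 at 7532 ± 168, ALB at 4591 ± 271, AHSG at 3530 ± 13.0, TF at 3480 ± 21.2, A2M at 2909 ± 222, AMBP at 2095 ± 95.9, RBP4 at 1103 ± 39.7, TTR at 432 ± 33.0 and SHBG at 6.09 ± 0.613 (SD, n = 3). AHSG and TF were the closest neighbours there, with ranges of 3518 to 3544 and 3459 to 3501. In OA the order was SERPINA1 at 1781 ± 59.2, AHSG at 1348 ± 29.7, ALB at 1190 ± 109, AMBP at 658 ± 49.4, A2M at 637 ± 32.5, RBP4 at 509 ± 29.2, TF at 178 ± 21.9, TTR at 116 ± 27.5 and SHBG at 3.85 ± 0.498. In WT the order was ALB at 4264 ± 15.7, AHSG at 3128 ± 43.0, SERPINA1 at 2139 ± 51.9, RBP4 at 1501 ± 24.6, AMBP at 1024 ± 19.3, A2M at 1022 ± 30.5, TF at 337 ± 3.96, TTR at 118 ± 5.57 and SHBG at 14.2 ± 0.736. AMBP and A2M overlapped in OA and in WT, and no other neighbours did in any group. Among all genes, ALB ranked between 11 and 14 in DNL libraries, between 67 and 82 in OA and between 10 and 11 in WT. TF ranked between 20 and 22 in DNL, between 989 and 1329 in OA and between 502 and 537 in WT. Coding length leaves out the untranslated ends, which are long in the annotated TF transcript (20602 bases in all, of which 2094 are coding). The SERPINA1 transcript has 3532 bases, of which 1254 are coding, and that of ALB 2263, of which 1827 are coding. The place of TF in this order, and that of SERPINA1 above ALB in DNL and OA, therefore depend on that choice. Other places, such as AHSG above ALB in OA and A2M below RBP4 in WT, may depend on it too. The order had been planned per kilobase of transcript, and no order by transcript length was computed.

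Other plasma proteins were measured beside these members. Among 20 further carrier and binding proteins, 19 were tested, and 11 rose, 5 fell and 3 were not called in DNL against WT (median log2 fold change 0.62, against -0.02 over all genes). PLTP, the phospholipid transfer protein, rose 5.02-fold and CP 6.60-fold in DNL. APOM, a carrier of sphingosine phosphate, fell by 1.69 and HP, haptoglobin, by 0.98 on the log2 scale. In OA against WT, 3 of the 19 rose and 13 fell (median -1.06). CLU, clusterin, and PLTP rose 1.58-fold and 1.39-fold in OA, while SELENOP, the selenium carrier, fell by 2.52 and CP by 2.77 on the log2 scale. Among 18 further protease inhibitors of plasma, 15 were tested, of which 8 rose and 1 fell in DNL (median 0.68), and 0 rose and 12 fell in OA (median -1.38). Over all genes, 27.1% were called higher and 26.8% lower in DNL, and 30.4% higher and 29.7% lower in OA. SERPINA3, alpha-1-antichymotrypsin, measured 2403 ± 40.9 CPM in DNL, 225 ± 12.8 in OA and 699 ± 18.8 in WT, and ITIH3, a heavy chain that joins bikunin, 688 ± 15.7, 58.7 ± 2.91 and 270 ± 6.51 CPM in the same groups. SERPINC1, antithrombin, was the inhibitor that fell in DNL, by 0.44 on the log2 scale (adjusted p = 9.04e-06).

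Receptors and binding partners of the carriers moved in both directions. Of 13 genes, 12 were tested, and 5 rose and 3 fell in DNL against WT (median 0.10), while 2 rose and 7 fell in OA against WT (median -0.76). The 5 of 12 that rose in DNL were above the 27.1% share of all tested genes with a higher call. The 3 of 12 that fell there were near the 26.8% share with a lower call. In OA, the 2 of 12 that rose were below the share of 30.4%, and the 7 of 12 that fell were above that of 29.7%. LRP1, the receptor that clears A2M with bound proteases, measured 1552 ± 39.3 CPM in DNL, 462 ± 17.8 in OA and 1061 ± 19.7 in WT. It rose in DNL (adjusted p = 8.06e-08) and fell in OA (adjusted p = 6.95e-11) against WT. SORL1, a sorting receptor, fell in OA by 2.03 on the log2 scale (adjusted p = 3.2e-12). ASGR2, a subunit of the hepatocyte receptor that clears desialylated plasma proteins, fell by 0.19 on the log2 scale in DNL (adjusted p = 0.00503).

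**Figure D4:**
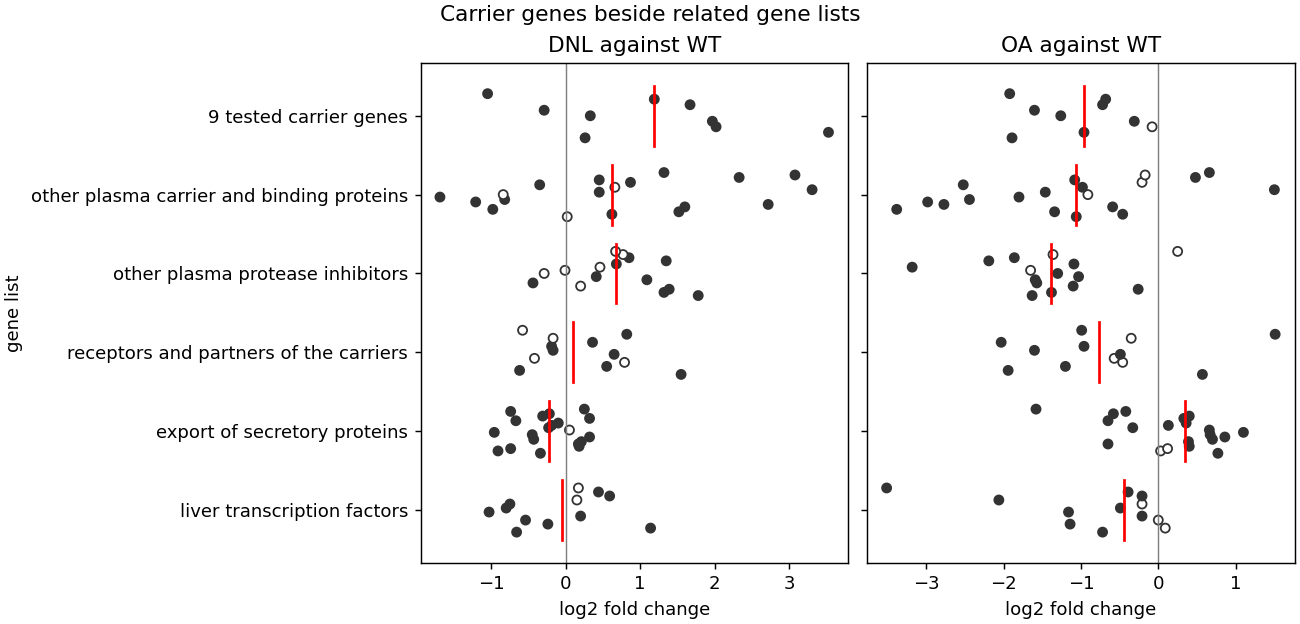
Log2 fold change (x axis) of each tested gene of 6 lists (y axis) in DNL against WT and OA against WT. Filled points passed the test, open points did not, and the red line is the list's median, 1.19 and -0.96 for the carrier genes.

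For ALB and TF, the genes of most similar profile were sought among 9012 others with a mean of at least 10 CPM, by the root mean square distance of centred log2 levels over the 9 libraries. Nearest to ALB were FGL1, a fibrinogen-like secreted protein, at a distance of 0.0515, DGAT2, an enzyme of triacylglycerol synthesis, at 0.0814, and HLF, a transcription factor, at 0.0858. FGL1 measured 501 ± 21.8 CPM in DNL, 115 ± 11.6 in OA and 452 ± 12.5 in WT. Nearest to TF were APOL1, a lipoprotein-bound plasma protein, at 0.105, FREM1 at 0.239 and UNC93A at 0.279. APOL1 measured 170 ± 7.22 CPM in DNL, 7.21 ± 1.23 in OA and 14.3 ± 1.37 in WT. The 9 libraries form 3 groups, so these distances describe mainly 3 group levels.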

How the data were processed

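The deposited table held estimated counts per Ensembl gene, produced by the authors with kallisto 0.48.0 and checked with FastQC 0.11.9 (build GRCh38), per the submitters' processing notes. Its annotation and strand setting: not given in the sources used here. Symbols matched 19316 of 19317 identifiers, and coordinates and coding lengths come from GENCODE release 29 (GRCh38). Counts were rounded, filtered with filterByExpr, TMM-scaled and fitted over all 9 samples with edgeR 4.0.16 in R 4.3.3 (estimateDisp, glmQLFit, both robust, glmQLFTest; group as the only factor). P-values were adjusted by Benjamini-Hochberg over 13636 genes, with calls under 0.05. SE is the log2 fold change over the root of F, and levels are mean ± SD of 3 samples. The procedure was tested on simulated counts.

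The members and lists were chosen with earlier results of these data known. All 10 members are named. From each related list the text draws on up to 2 genes per direction with the smallest adjusted p, and does not name all of these. Others are marked as chosen after their values were seen or for the stated reason. Some cell type markers, CYP3A4, PTPRC and COL1A2 among them, fall outside this rule and count as chosen after their values were seen. Some genes of these lists are not reported here by name. Replicates differed by more than sampling noise (chi-square per degree of freedom 5.44 to 16.6), so none was taken as a duplicate. Limits for counts of 0 are 3 counts and cover counting error only. Alternatives were RLE factors, library totals, no filter, DESeq2 1.42.0, limma-voom 3.58.1, fits of 2 groups, a replicate block and leaving out each sample. Promoter windows come from RefSeq on GRCh38.p14.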

Additional observations from a re-analysis of the deposited data

How the results depend on the processing

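Over 16 alternatives, 428 of 432 log2 fold changes of the 9 tested members kept their direction and their side of the threshold. The 4 others were ALB in DNL against WT with library totals alone (log2 fold change 0.10, adjusted p = 0.171) and TTR in OA against WT, at -0.27 (adjusted p = 0.0212) without OA replicate 1, and at 0.01 without OA replicate 2 or OA replicate 3. The cause was not tested. Leaving out each sample in turn gave 7 members higher and 2 lower in DNL against WT, 0 higher and 8 to 9 lower in OA against WT, and 9 higher and 0 lower in DNL against OA. Over all genes, those fits called 6468 to 7664, 7509 to 8223 and 7983 to 8534 genes in either direction in the same comparisons. Under library totals alone, the median log2 fold change over all genes moved by -0.17 in DNL against WT, where 32.2% of calls were then higher (50.3% with TMM), and by -0.23 in DNL against OA, where 33.9% were (50.8% with TMM). With the replicate number as a block, 7 members were higher and 2 lower in DNL against WT, and 8 lower in OA against WT, as without it. Over all genes, the block fit called 7245 and 8099 genes in these comparisons. Deviations of same-numbered samples correlated between -0.0544 and 0.171, and those of differently numbered samples between -0.201 and 0.111. With 3 samples per group, these values cannot decide whether the number pairs samples. The depth behind SHBG was as low as 26 counts in an OA library.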

Other observations

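Genes of protein export and liver transcription factors were also measured. Of 20 genes of the secretory pathway (entry into and export from the endoplasmic reticulum, and 2 proprotein convertases), 6 rose and 13 fell in DNL against WT (median log2 fold change -0.22), and 12 rose and 6 fell in OA against WT (median 0.34). Over all genes, 27.1% were called higher and 26.8% lower in DNL, and 30.4% higher and 29.7% lower in OA, so the 6 that rose in DNL and the 6 that fell in OA were near those shares. SEC61A1, a channel subunit of the endoplasmic reticulum, measured 400 ± 17.4 CPM in DNL, 861 ± 24.0 in OA and 506 ± 14.4 in WT. SEC24D, a coat subunit of export vesicles, measured 75.0 ± 3.69 CPM in DNL, 313 ± 26.0 in OA and 146 ± 5.93 in WT. PCSK6, a proprotein convertase, fell in OA by 1.58 on the log2 scale against WT (adjusted p = 1.06e-10).

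Of 12 liver transcription factors, 4 rose and 6 fell in DNL against WT (median -0.04), and 0 rose and 9 fell in OA against WT (median -0.44). The 4 of 12 that rose in DNL were near the 27.1% of all genes called higher there. The 6 of 12 that fell in DNL were above the 26.8% share with a lower call. In OA, the 0 that rose were below the share of 30.4%, and the 9 of 12 that fell were above that of 29.7%. FOXA3 and FOXA1 fell in DNL by 1.03 and 0.54 on the log2 scale, and NR5A2 and PROX1 rose 1.51-fold and 1.36-fold. ONECUT1 measured 56.4 ± 7.31 CPM in DNL, 11.9 ± 1.46 in OA and 50.6 ± 0.703 in WT. These values stand beside the carrier genes and their part in the carrier results was not tested.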
